A study of Mus musculus with 6 samples.

Results

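Of 10 unconventional myosin heavy chain genes measured in mouse macrophages, Myo15b was at 47.7% of its wild-type level in cells without AEG-1, Myo1e was at 86.3%, and the other 8 lay between 94.4% and 107% of it. These 10 genes (Myo15b, Myo1e, Myo1f, Myo1g, Myo5a, Myo7a, Myo9a, Myo9b, Myo10 and Myo18a) were taken from a fixed list of symbols, matched to the Ensembl gene identifiers of a table of 46983 genes, and all 10 were in the table and passed the filter on low counts. The list was selected on the AEG-1 KO against WT log2 fold changes of these same libraries, so those values are given for the members as a description and not as a test. The table held 25 unconventional myosin heavy chain genes in all, the 10 listed and 15 others, and 14 conventional ones.

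The cells were bone marrow derived macrophages, which are grown from marrow in medium that drives precursors to become macrophages. Both groups came from the femurs of C57BL/6 mice and were kept for 7 days in RPMI-1640 with 10% heat-inactivated serum and 20% L929 conditioned medium, a source of macrophage growth factor, and received no treatment. One group, of 3 libraries, was from wild-type mice (WT) and the other, also of 3, from mice labelled AEG-1 KO, here KO, in which Mtdh, the gene of the AEG-1 protein, is knocked out. The labels give neither the deleted part of the gene nor the ages of the mice, and they do not say whether replicates were separate animals or cultures, so the errors below are the spread between libraries, which may be technical.

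Unconventional myosins are motors that bind actin filaments through a conserved head and bind membranes, cargo or signalling proteins through tails that differ between classes. In macrophages, class I myosins link the plasma membrane to actin during uptake and migration, class V myosins move vesicles, class IX myosins switch off the GTPase RhoA through their tails, and class X myosin works at the tips of filopodia and in phagocytic cups. They are unlike the conventional class II myosins, which assemble into contractile filaments.

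The libraries held 42548170 to 58947230 counts. Mtdh had 11560, 14849 and 11806 counts in the WT libraries and 15, 22 and 15 in the KO libraries, so every library carried the level of its label. Levels of 1 gene are given as CPM, counts scaled to a common library size with TMM, and a gene was called when its edgeR quasi-likelihood p, adjusted by the Benjamini-Hochberg method over all 16115 genes tested, was under 0.05. Of these genes 6.35% were called, 3.31% higher and 3.04% lower in KO, and in 26.8% the 3 libraries of one group all lay outside the range of the other. The macrophage markers summed to 17790 to 18254 CPM in WT and 18303 to 18947 CPM in KO, with 3 of 10 called higher and 1 lower. Markers of other cells were low but differed: the 10 monocyte markers summed to 261 to 285 CPM in WT and 304 to 328 CPM in KO (6 called higher, 1 lower), the 12 neutrophil markers to 198 to 226 and 252 to 296 CPM (6 higher, 1 lower), and the 12 stromal and endothelial markers to 13.1 to 15.1 and 19.0 to 21.1 CPM (5 higher). The 7 dendritic cell markers summed to 2.07 to 4.39 CPM in WT and 2.15 to 3.64 CPM in KO, the 7 lymphocyte markers to 1.86 to 2.13 and 2.82 to 3.22 CPM. Only 4 dendritic cell and 3 lymphocyte markers were tested, and none was called. All 3 tested lymphocyte markers lay higher in KO without overlap. Mast cell and erythroid markers reached at most 0.222 CPM, with Mcpt4 and Tpsb2 among those at 0. These marker differences stand beside every comparison below, and their part in it was not tested. In bulk RNA a lower share of cells that express a gene and less RNA per cell cannot be told apart.

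Per kilobase of gene, the class I gene Myo1f was the most abundant member and Myo15b by far the least. Levels are compared between genes as RPKM, here the CPM per kilobase of all annotated exons of the gene. Myo1f lay at 132 ± 4.68 RPKM (SD, n = 3) in WT and 142 ± 0.947 RPKM in KO. Among the members in WT it was followed by Myo1e at 60.3 ± 1.77, Myo9b at 46.6 ± 2.52, Myo5a at 28.7 ± 0.433, Myo1g at 23.2 ± 2.25 and Myo7a at 13.8 ± 0.605 RPKM. The lowest 4 were Myo18a at 6.61 ± 0.642, Myo10 at 5.44 ± 0.289, Myo9a at 5.17 ± 0.222 and Myo15b at 0.656 ± 0.0302 RPKM. On this scale the WT ranges of neighbours in this order did not overlap, except for Myo10 (5.17 to 5.75) and Myo9a (4.99 to 5.41). The order of the means was the same in KO, but there Myo1e, at 50.9 to 52.7 RPKM, overlapped Myo9b, at 48.8 to 51.5 RPKM. Per length of all annotated exons, Myo1e was 1.30 times Myo9b in WT and 1.04 times in KO. Which neighbours overlapped depended on the gene length used. Per length of the longest transcript, Myo10 (6.45 to 7.16 RPKM) and Myo9a (5.31 to 5.76) were apart in WT. Myo1e (61.8 to 63.9 RPKM) and Myo9b (50.2 to 52.9) were then apart in KO. On that scale Myo5a (35.9 to 36.9) overlapped Myo1g (30.1 to 36.1) in WT, and Myo7a (15.0 to 16.3) overlapped Myo18a (12.6 to 15.3).

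**Figure D1:**
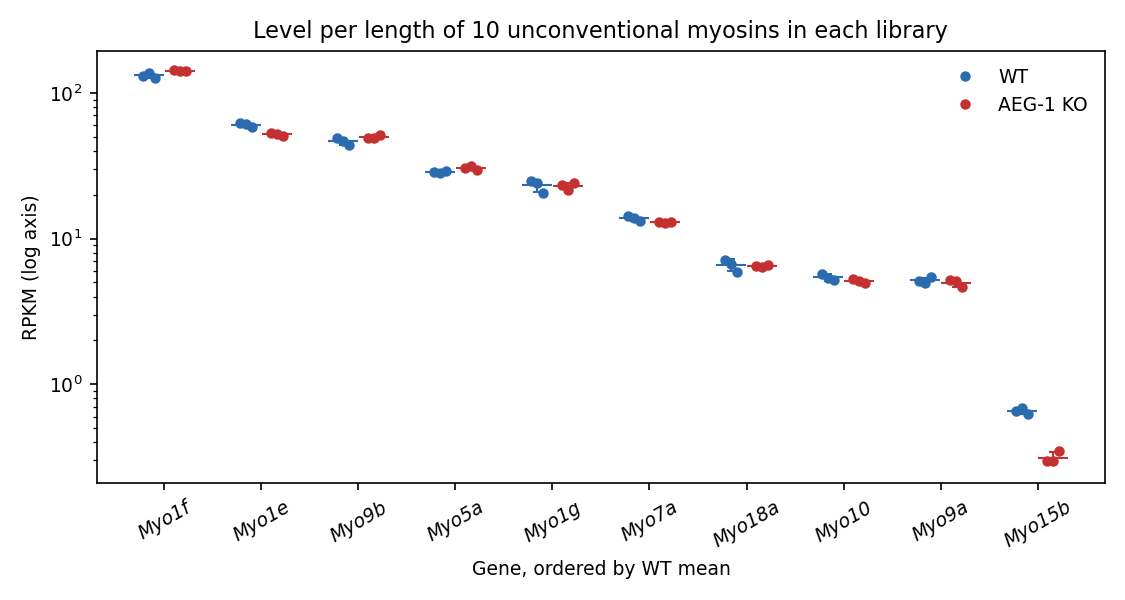
RPKM (log axis) of the 10 listed unconventional myosin genes with 1 point per library, WT in blue and AEG-1 KO in red, where dashes mark means and bars the SD over 3 libraries. Myo15b, at 0.626 to 0.687 RPKM in WT and 0.297 to 0.346 in KO, is the gene whose groups stand furthest apart.

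The summed level of the family was alike in the groups while its makeup differed slightly. All 25 unconventional myosin genes together gave 377 ± 12.0 RPKM (SD, n = 3) in WT and 376 ± 1.97 RPKM in KO, with overlapping ranges. The 10 listed genes made up 85.5% ± 0.349 of that sum in WT and 87.0% ± 0.194 in KO. Myo1f alone was 35.0% ± 0.809 of the sum in WT and 37.7% ± 0.0891 in KO, and Myo1e was 16.01% ± 0.103 and 13.8% ± 0.257. Myo9b was 12.3% ± 0.317 and 13.3% ± 0.406, and Myo5a was 7.62% ± 0.361 and 8.13% ± 0.247. Myo15b was 0.174% ± 0.0047 of the sum in WT and 0.0835% ± 0.0076 in KO. For comparison, Myh9, the main conventional myosin heavy chain, lay at 93.8 ± 9.16 RPKM in WT and 86.4 ± 1.28 RPKM in KO per length of all its exons. Per length of its longest transcript it lay at 163 ± 15.9 RPKM (147 to 178) in WT, where Myo1f lay at 165 to 178 RPKM, so the ranges overlapped on that scale.

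**Figure D2:**
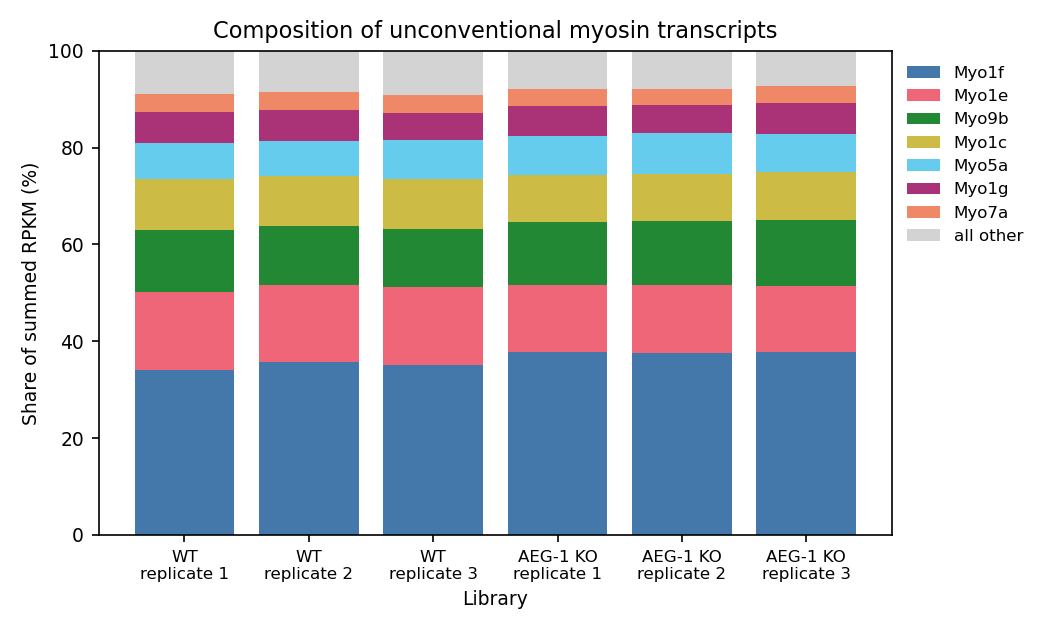
Share (%) of each gene in the summed RPKM of the 25 unconventional myosin genes, 1 bar per library, with the 7 most abundant genes in colour and all other genes in grey. Myo1f takes 35.0% on average in WT and 37.7% in KO, and Myo1e 16.01% and 13.8%.

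The 250 bases before the start of 3 members are shown because Myo15b and Myo1e were the 2 members called lower and Myo1f the most abundant. They are RefSeq windows on GRCm38.p6, written 5′ to 3′ along the gene, and capitals mark matches to 4 motifs searched on both strands: GAGGAAGT (the binding sequence of the myeloid factor PU.1), GGGCGG (the GC box), CCAAT and TATAAA.
Myo15b chr11:115857675-115857924 plus strand: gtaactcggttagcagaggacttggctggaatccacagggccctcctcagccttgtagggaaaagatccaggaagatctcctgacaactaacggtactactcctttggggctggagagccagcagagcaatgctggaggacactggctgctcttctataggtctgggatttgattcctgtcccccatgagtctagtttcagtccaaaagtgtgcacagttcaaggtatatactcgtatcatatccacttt
Myo1e chr9:70207100-70207349 plus strand: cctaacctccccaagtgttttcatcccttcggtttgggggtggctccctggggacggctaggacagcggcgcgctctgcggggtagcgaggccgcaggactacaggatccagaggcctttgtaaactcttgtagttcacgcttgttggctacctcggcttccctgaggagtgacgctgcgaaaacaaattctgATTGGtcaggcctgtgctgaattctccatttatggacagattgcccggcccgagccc
Myo1f chr17:33555457-33555706 plus strand: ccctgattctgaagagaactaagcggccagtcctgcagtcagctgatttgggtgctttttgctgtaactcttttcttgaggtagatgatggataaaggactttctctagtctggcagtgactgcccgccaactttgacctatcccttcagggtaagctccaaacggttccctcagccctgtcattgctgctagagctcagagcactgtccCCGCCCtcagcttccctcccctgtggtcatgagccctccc
All 10 members had a window, 13 windows in all. GAGGAAGT was in none of the 13 and in 2.44% of the 32851 windows of the whole table. GGGCGG was in 7 of the 13 windows and in 32.7% of all windows, and CCAAT was in 2 of the 13 and in 33.8% of all windows. TATAAA was in 1 of the 13 and in 12.4% of all windows. The Myo1e window held CCAAT, read on the other strand, starting 57 bases before the start, and the Myo1f window held GGGCGG, also on the other strand, starting 40 bases before it. The window of Myo15b held none of the 4, and its RefSeq start lies upstream of the start of the GENCODE gene at 115858406. These matches describe letters in these windows only, and counts per gene do not tell which start was used.

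Of the 10 members, 2 were among the called genes, both lower, against 6.35% of all genes called and 3.04% called lower. The groups did not overlap in 5 of the 10, against 26.8% of all genes. Because the members were listed with this contrast known, nothing is read from these shares. The median log2 fold change of the members was -0.04, with 7 below 0 and 3 above, and that of all tested genes was 0.01.

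Myo15b was the member with the largest difference and the fewest reads. It is a class XV gene, related to the hair cell motor gene Myo15, and lies on chromosome 11 (ENSMUSG00000034427, GRCm38, 115858406 to 115892603, plus strand). It had 289, 396 and 267 counts in WT replicates 1 to 3 and 132, 125 and 153 in KO replicates 1 to 3. Its level was 6.47, 6.77 and 6.17 CPM in WT and 2.93, 2.94 and 3.41 CPM in KO. The highest KO library thus lay well below the lowest WT library. The log2 fold change was -1.07 ± 0.10 (SE, n = 3 per group), from 6.47 ± 0.297 to 3.09 ± 0.278 CPM (SD). Of the 16115 tested genes, 98 had a larger absolute log2 fold change, and 33.6% had a lower mean CPM. The relative Myo15 itself was near the detection limit, at 0.264 ± 0.0903 CPM in WT and 0.287 ± 0.147 CPM in KO.

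Other readouts around Myo15b were compared with it. Its exons overlap those of Recql5, a DNA helicase gene on the other strand, by 9 of 9857 bases. Recql5 lay at 33.4 ± 0.377 CPM in WT and 35.6 ± 3.43 CPM in KO, a log2 fold change of 0.09 ± 0.07 (adjusted p = 0.498 by edgeR). Its groups overlapped, and only KO replicate 1, at 39.6 CPM, lay above the WT range of 33.1 to 33.8 CPM. No other gene had a stretch of at least 100 bases at 95% identity or more with a Myo15b transcript. The markers of monocytes, of neutrophils and of stromal cells differed in the opposite direction in the same libraries (medians of 0.52, 0.61 and 0.85 on the log2 scale), and their part in the result was not tested. Without any 1 library the log2 fold change of Myo15b was -1.15 to -1.03. These are refits of the libraries the list was selected on, so the range is no test of the difference.

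Among the class I members, Myo1e was lower in KO and Myo1f and Myo1g were near their WT levels. Myo1e (ENSMUSG00000032220, chromosome 9, 70207350 to 70399766, plus strand) encodes a long-tailed class I myosin of endocytic and phagocytic sites, also needed in kidney podocytes. It lay at 353, 347 and 333 CPM in WT and at 301, 299.8 and 290.5 CPM in KO, without overlap. The log2 fold change was -0.21 ± 0.04 (SE), and 25.4% of tested genes had a larger absolute one. It fell outside the called genes without WT replicate 2 (log2 fold change -0.21) or without KO replicate 2 (-0.23), fits in which 441 and 380 genes were called in all. It also fell outside them with replicate number added to the fit as a block (-0.21), where 227 genes were called in all. It had 16820 counts per WT library on average.

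Myo1f (ENSMUSG00000024300, chromosome 17, 33555707 to 33607764, plus strand), the long-tailed class I myosin of leukocytes, had the highest level of the members also in CPM. It lay at 653, 680.1 and 634 CPM in WT and at 709, 699 and 705 CPM in KO. All KO libraries lay above all WT libraries, by 0.10 ± 0.04 on the log2 scale (SE), and the gene was not called. Myo1e and Myo1f, both long-tailed, thus had log2 fold changes of opposite sign, and the ratio of their mean RPKM, Myo1f over Myo1e, was 2.19 in WT and 2.72 in KO. Myo1g (ENSMUSG00000020437, chromosome 11, 6506548 to 6520965, minus strand), a short-tailed class I myosin of blood cells, lay at 172, 169 and 143 CPM in WT and at 162, 151 and 167 CPM in KO. Its KO libraries lay inside the WT range, with a log2 fold change of -0.01 ± 0.07 (SE). No near-identical stretch linked Myo1e, Myo1f or Myo1g to another gene.

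The cargo and filopodium motors Myo5a, Myo7a and Myo10 differed by under 0.10 on the log2 scale. Myo5a (ENSMUSG00000034593, chromosome 9, 75071015 to 75223688, plus strand), the vesicle and pigment granule motor mutated in dilute mice, lay at 423, 420.2 and 432 CPM in WT and at 453, 465 and 439.7 CPM in KO. The groups did not overlap, and the log2 fold change was 0.09 ± 0.04 (SE). It was called in 1 of 16 alternative fits, the one that removed a smooth dependence on transcript length and GC (log2 fold change 0.10). Myo7a (ENSMUSG00000030761, chromosome 7, 98051060 to 98119524, minus strand), a motor of hair cells and retinal pigment epithelium, lay at 122, 119 and 112.2 CPM in WT and at 111.6, 110.4 and 111.7 CPM in KO. Its groups did not overlap, but WT replicate 3 lay just above the highest KO library, and the log2 fold change was -0.08 ± 0.05 (SE).

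Myo10 (ENSMUSG00000022272, chromosome 15, 25622525 to 25813673, plus strand) carries integrins and other cargo to filopodium tips. It lay at 58.2, 54.6 and 52.4 CPM in WT and at 53.5, 52.1 and 50.4 CPM in KO, with overlap and a log2 fold change of -0.08 ± 0.05 (SE). Myo10 is the member on the chromosome of the deleted gene, and its start lies 8.46 Mb from that of Mtdh. The other 9 members lie on chromosomes 7, 8, 9, 11 and 17.

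The class IX and class XVIII members differed by no more than 0.10 on the log2 scale. Myo9b (ENSMUSG00000004677, chromosome 8, 71272714 to 71360713, plus strand), a motor with a RhoA-inactivating tail that is abundant in leukocytes, lay at 366, 352 and 329 CPM in WT and at 366, 370.2 and 386 CPM in KO. The groups overlapped in 1 library each, and the log2 fold change was 0.10 ± 0.05 (SE). Its exons overlap those of Haus8 on the other strand by 116 of 7496 bases, and Haus8 lay at 58.9 ± 2.01 CPM in WT and 65.8 ± 1.02 CPM in KO (adjusted p = 0.0772 by edgeR). Myo9a (ENSMUSG00000039585, chromosome 9, 59750896 to 59928866, plus strand), its relative with the same kind of tail, lay at 66.4, 65.0 and 70.6 CPM in WT and at 67.7, 66.6 and 60.2 CPM in KO. KO replicate 3 was the lowest of the 6, the other 5 overlapped, and the log2 fold change was -0.05 ± 0.06 (SE). Myo9a exons overlap the antisense gene Gm20275 by 166 bases, so its value is uncertain to that extent.

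Myo18a (ENSMUSG00000000631, chromosome 11, 77763246 to 77865980, plus strand) encodes a divergent myosin with little motor activity that binds GOLPH3 at the Golgi. It lay at 115, 108 and 94.8 CPM in WT and at 104, 102 and 105 CPM in KO, all KO libraries inside the WT range, with a log2 fold change of -0.03 ± 0.07 (SE). Its exon union is far longer than its longest transcript, and per length of the latter its WT level was 14.1 RPKM in place of 6.61. A near-identical stretch of up to 143 bases was found in 106 other genes for Myo18a. Mtdh, the knocked-out gene, was among them, with 136 bases at 96.3% identity, and its part in the Myo18a counts was not tested. For Myo7a, a stretch of up to 103 bases was found in 6 genes. Counts within the stretches of both myosins are uncertain.

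One WT library stood low for most members. WT replicate 3 was the lowest WT library for 8 of the 10 members, against 39.4% of all tested genes, and the highest for Myo5a and Myo9a. In those 2 genes GC content was 45.7% and 42.3% in the longest transcript, while in the other 8 it was 50.8% to 60.5%. Relative to the mean of WT replicates 1 and 2, WT replicate 3 ran from -0.25 (Myo1g) to 0.10 (Myo9a) on the log2 scale. Without WT replicate 3 the log2 fold changes were -0.09 for Myo1g, -0.11 for Myo18a and 0.06 for Myo9b, against -0.01, -0.03 and 0.10 with it. Those of Myo7a and Myo10 were both -0.12, against -0.08, and that of Myo15b was -1.10. The 10 genes are long, with a median of 9212 exon bases against 3579 for all tested genes.

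**Figure D3:**
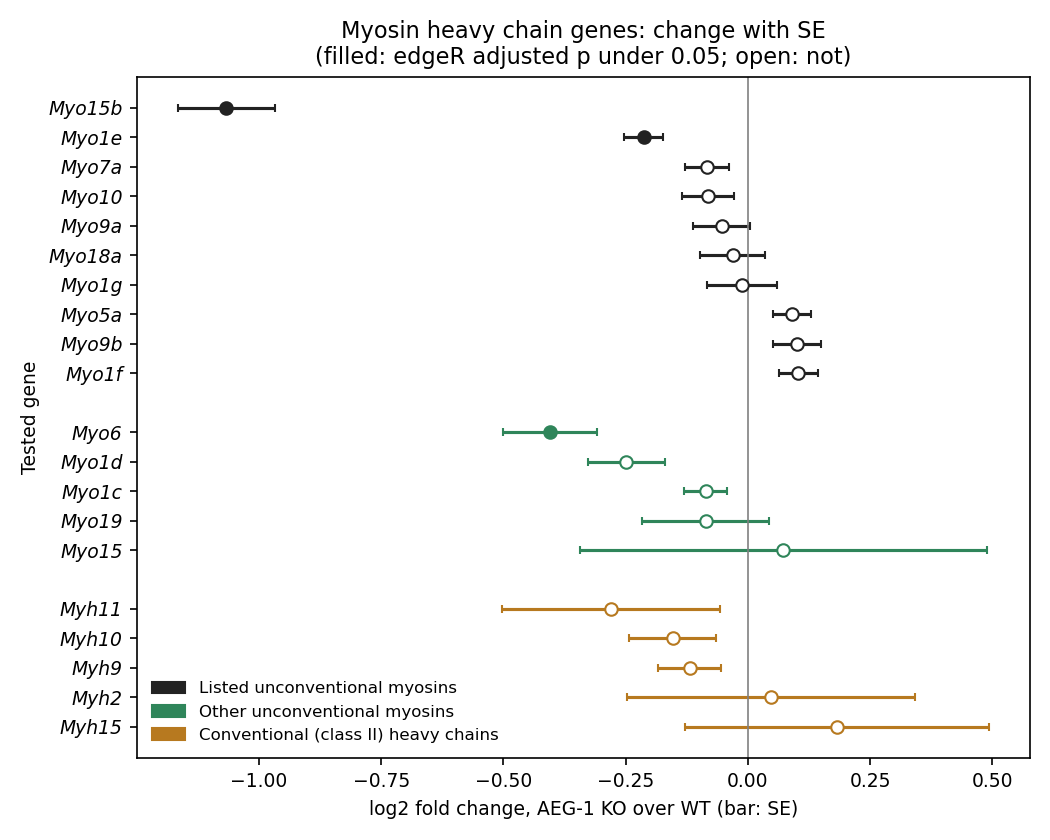
Log2 fold change, KO over WT, with its SE (bar) for tested myosin heavy chain genes, listed unconventional (black), other unconventional (green) and conventional (ochre), with filled points at an edgeR adjusted p under 0.05. Myo15b lies at -1.07, and apart from Myo1e at -0.21 the listed genes lie between -0.08 and 0.10.

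Among the 15 other unconventional myosin genes, 6 passed the filter, of which 2 fell, Myo6 among them, none rose and 4 did not pass the test, beside 3.04% of all tested genes called lower. The remaining 9, among them the class III and class VII relatives Myo3a, Myo3b and Myo7b, had 0 to 14 counts in every library. Myo6, the motor that moves toward the minus end of actin filaments, fell from 6.62, 6.48 and 7.24 CPM in WT to 5.64, 4.72 and 4.95 CPM in KO (log2 fold change -0.41 ± 0.10 SE, adjusted p = 0.0411 by edgeR). The call of Myo6 did not hold when any single library was left out except KO replicate 1 (adjusted p from 0.0568 to 0.168 by edgeR). Myo1c and Myo1d had log2 fold changes of -0.09 ± 0.04 and -0.25 ± 0.08 (adjusted p = 0.304 and 0.105 by edgeR, 95% intervals -0.19 to 0.01 and -0.43 to -0.07). The median log2 fold change of the 6 was -0.17, against 0.01 for all tested genes. This list and those below were also chosen with earlier results of these data known, so their counts of called genes are a description.

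No conventional heavy chain was called among the 5 of 14 that passed the filter, beside 6.35% of all tested genes. None had an unadjusted p under 0.05 in edgeR, beside 3475 of all 16115 tested genes, and DESeq2 and limma-voom also called 0. The median SE of the 5 was 0.22, against 0.08 for all tested genes, so the lack of calls does not show that they were unchanged. Myh9, on chromosome 15, had a log2 fold change of -0.12 ± 0.06 (adjusted p = 0.328 by edgeR, 95% interval -0.26 to 0.03) and passed without WT replicate 3 (log2 fold change -0.19, adjusted p = 0.0359 by edgeR). Myh10 had one of -0.15 ± 0.09 (adjusted p = 0.36 by edgeR).

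The light chains and calmodulins, which bind the necks of myosin heavy chains, held 3 falls and no rise among 10 tested of 16, beside 3.04% of all tested genes called lower, with a median log2 fold change of -0.12. Calm3, a calmodulin gene, whose protein is a light chain of class I and class V myosins, fell by 0.30 ± 0.05 on the log2 scale (SE, adjusted p = 0.0104 by edgeR). Myl12a, a regulatory light chain gene of conventional myosin, fell by 0.23 ± 0.04 (adjusted p = 0.017 by edgeR) and shares exons with Myl12b. In both genes all KO libraries lay below all WT libraries. Calm3 lost its call without WT replicate 2 (adjusted p = 0.0569 by edgeR). Myl12a lost it without WT replicate 2, KO replicate 1 or KO replicate 2 (0.0522 to 0.0927). Of 15 tested myosin kinases, phosphatase subunits and chaperones, none was called in edgeR, beside 6.35% of all tested genes. An unadjusted p under 0.05 by edgeR was found for 4 of them, beside 3475 of all 16115 tested genes. The chaperone gene Hsp90ab1, at -0.17 ± 0.04 (adjusted p = 0.0554 by edgeR), was called by DESeq2 and limma-voom (adjusted p = 0.0162 and 0.0469). The phosphatase partner Mprip had a log2 fold change of 0.13 ± 0.04 (adjusted p = 0.1 by edgeR).

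Of 20 tested partners that bind the tails of these motors, 1 rose and none fell, beside 3.31% and 3.04% of all tested genes. Other settings also called partners lower, 3 with RLE factors, 2 with upper-quartile factors, 3 with DESeq2 and 4 with the length and GC trend removed. It was Dab2, an endocytic adaptor of Myo6, which rose from 128, 129 and 125 CPM in WT to 184, 195 and 194 CPM in KO (log2 fold change 0.59 ± 0.04 SE, adjusted p = 0.000129 by edgeR), and it kept its call without any 1 library (adjusted p from 0.000158 to 0.00151 by edgeR). Dab2 and Myo6 thus passed the test in opposite directions.

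Filopodium genes, with which Myo10 works, held 2 rises and 1 fall among 16 tested, beside 3.31% and 3.04% of all tested genes, and a median log2 fold change of 0.01. The integrin gene Itgb5 and Raph1, which encodes lamellipodin, rose by log2 fold changes of 0.30 ± 0.06 and 0.19 ± 0.04 (adjusted p = 0.0194 and 0.0302 by edgeR), and Fscn1, the actin bundler fascin, fell from 4.98 ± 0.553 to 3.47 ± 0.362 CPM (log2 fold change -0.52 ± 0.12, adjusted p = 0.037 by edgeR). Raph1 lost its call without each of the 6 libraries (adjusted p from 0.0543 to 0.171 by edgeR). Fscn1 lost it without each library except WT replicate 3 and KO replicate 3 (0.0676 to 0.14), and Itgb5 without KO replicate 2 or 3 (0.079 and 0.0645).

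Actin genes of podosomes and phagocytic cups, the sites of class I myosins in macrophages, held 1 rise and 4 falls among 33 tested, beside 3.31% and 3.04% of all tested genes, with a median log2 fold change of -0.05. Cfl1, the actin-severing cofilin, fell from 878 ± 37.9 to 720.5 ± 20.2 CPM (log2 fold change -0.29 ± 0.04, adjusted p = 0.00625 by edgeR) and kept its call without any 1 library. Cyfip1, of the WAVE complex, and Vcl, vinculin, fell by 0.27 ± 0.05 and 0.28 ± 0.05 (adjusted p = 0.00927 and 0.0163 by edgeR), and Lsp1, an actin-binding partner of Myo1e in phagocytosis, rose by a log2 fold change of 0.50 ± 0.09 (adjusted p = 0.0107 by edgeR). Hcls1, a cortactin relative named after its value was seen, also fell, by 0.23 ± 0.04 (adjusted p = 0.0167 by edgeR). Without KO replicate 2 the calls of Cyfip1, Lsp1, Vcl and Hcls1 were lost (adjusted p = 0.0652, 0.0571, 0.0839 and 0.092 by edgeR). Vcl and Hcls1 also lost theirs without WT replicate 2 (0.0761 and 0.0839) and KO replicate 3 (0.056 and 0.0538).

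Whether reads were counted by strand is not stated in the sources used here, and Myl12a, Cfl1, Cyfip1, Vcl, Dab2 and Mprip overlap exons of a gene on the other strand, most widely Vcl with 25.5% of its exon bases. Near-identical stretches in other genes were found for Mprip (up to 940 bases), Myl12a (648), Cfl1 (498), Calm3 (367), Itgb5 (343) and Raph1 (217). Myo6, Myo1c, Cyfip1, Dab2 and Vcl also had such stretches, while Lsp1, Fscn1, Hsp90ab1, Hcls1, Myh9, Myh10 and Myo1d had none. Their part in the counts was not tested.

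**Figure D4:**
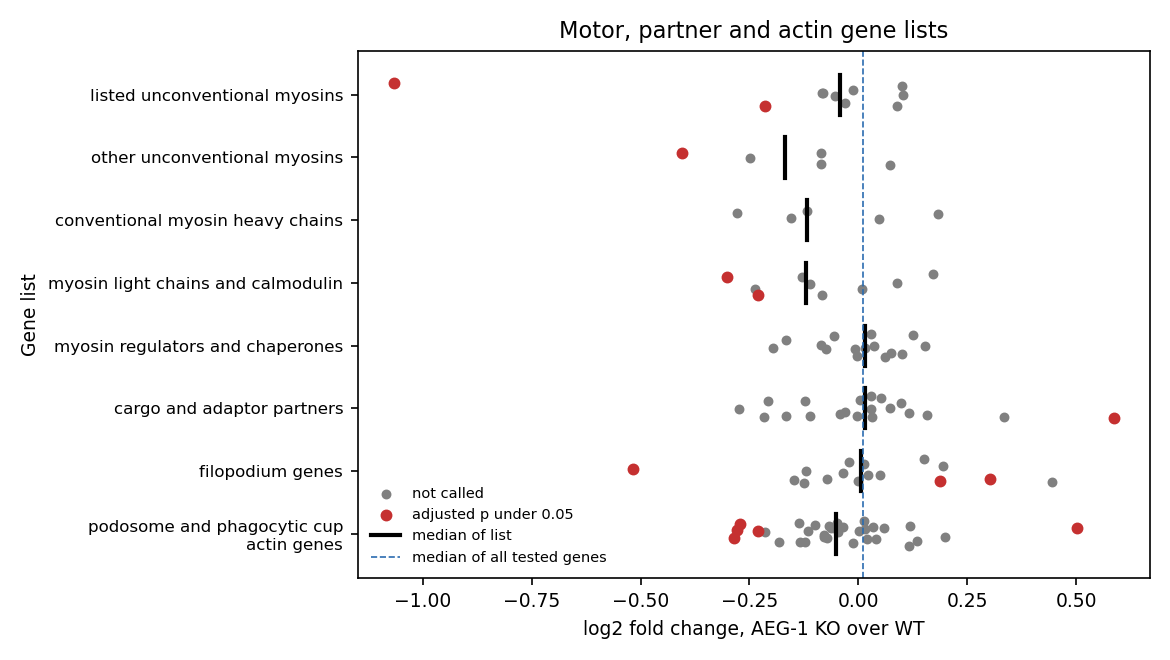
Log2 fold change, KO over WT, of tested genes in 8 gene lists (points, red at an edgeR adjusted p under 0.05), with the median over all tested genes of each list (black bar) and of all tested genes (dashed line at 0.01). The listed unconventional myosins centre on -0.04 with Myo15b far to the left at -1.07.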

How the data were processed

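RNA of 3 WT and 3 AEG-1 KO macrophage libraries was sequenced. The deposited values are whole-number counts for each Ensembl gene, and their totals differ between libraries, as raw counts do. Per the submitters' processing notes, reads passed through FastQC 0.11.2 and cutadapt 1.9, Subread and featureCounts 1.4.6-p4 were used, edgeR 3.18.1 is listed too, and the genome is named mm10 or GRCm38. No annotation release, strand setting or treatment of multiply matching reads is given in the sources used here. GENCODE mouse release 21 named 46488 of the 46983 identifiers.

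In R 4.3.3, genes with low counts were removed (filterByExpr, minimum count 10), and genotype was the single term of an edgeR 4.0.16 quasi-likelihood fit with TMM factors. The SE was derived from the fold change and its F statistic. The fit was tested on simulated data. RPKM used the union of annotated exons. Near-identical stretches were sought with BLAST at 95% identity over 100 bases. The smallest library gave 42.5 reads per CPM.

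Members and lists were chosen with earlier results of these data known. Genes named beside the members were up to 4 called genes per list with the smallest p, or the 2 with the smallest p in a list without a call. Myo1c, Myo1d, Myo15, Hcls1 and the genes overlapping members were added after their values were seen. Some items of these lists are not reported here. A planned comparison of protein sequences was not made here. As alternatives, scaling used RLE, upper-quartile or library size alone, besides other filters, DESeq2 1.42.0, limma-voom 3.58.1, a replicate block, removal of a length and GC trend (mgcv 1.9.3), a stricter threshold, another gene length, and leaving out each library.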

Additional observations from a re-analysis of the deposited data

How the results depend on the processing

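Outside the listed members, no called gene named here changed sign under any alternative run. Among the members, described and not tested, the log2 fold changes of Myo1g and Myo18a lay on either side of 0 (-0.09 to 0.02 and -0.11 to 0.02). That of Myo15b lay between -1.15 and -1.03 and that of Myo1e between -0.24 and -0.21, in refits of the libraries the list was selected on. The number of genes called over the whole table, 1023, was 227 with a replicate block, 2326 with the length and GC trend removed, 393 at a threshold of 0.01 and 380 to 1092 without 1 library.

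Same-numbered WT and KO libraries did not deviate together (correlations of -0.27, -0.17 and -0.25), and no library correlated best with its own number. The labels do not say whether the numbers pair libraries. These correlations cannot settle it, because deviations from a mean of 3 libraries are tied to each other. With the replicate block, 1 listed myosin was called, and 0 other unconventional myosins, 0 light chain, 0 filopodium and 0 podosome genes. At a threshold of 0.01 these counts were 1 and 1, 0, 0 and 2. With the length and GC trend removed they were 5 for filopodium, 13 for podosome, 1 for conventional heavy chain, 6 for regulator and 6 for cargo partner genes. Regulators gave 1 call with no filter, with DESeq2 and with limma-voom. Cargo partners gave 4 calls with RLE factors, 3 with upper-quartile factors, 2 by library size only, 2 with no filter, 2 at a mean CPM of at least 1, 5 with DESeq2, 2 with limma-voom, and 4 with the replicate block and the trend removed together. Without 1 library the calls ranged from 1 to 2 for listed myosins, 1 to 2 for other unconventional myosins, 0 to 1 for conventional heavy chains, 0 to 3 for light chains, 0 to 1 for regulators, 1 to 2 for cargo partners, 0 to 2 for filopodium and 1 to 8 for podosome genes. The cause was not tested.

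With the longest transcript as gene length, WT levels were 0.693 RPKM for Myo15b, 73.3 for Myo1e, 171 for Myo1f, 33.9 for Myo1g, 36.3 for Myo5a, 15.7 for Myo7a, 5.50 for Myo9a, 6.78 for Myo10 and 14.1 for Myo18a, whose annotated exons span 16037 bases against 7513 in its longest transcript. The WT shares of the family then were 0.141% for Myo15b, 14.9% for Myo1e, 6.91% for Myo1g, 3.20% for Myo7a, 1.12% for Myo9a, 9.75% for Myo9b, 1.38% for Myo10 and 2.87% for Myo18a. With 3 libraries a group, the differences of Myo1g, Myo9a and Myo18a were smaller than their SE. Intervals cover the spread between libraries only.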
